A study of Brassica napus with 6 samples.

Results

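Histone genes were followed in the roots of oilseed rape (Brassica napus) whose leaves had been painted with glutathione. The set held 46 Arabidopsis genes for histones H1, H2A, H2B, H3 and H4, listed by gene family. It was chosen with earlier results of these data known. A gene counted as measured where the annotation of the array pairs a probe with that gene alone, and where a gene had several such probes the brightest was taken. That left 16 of the 46 genes, among 13350 genes measured in the same way. Another 16 genes, all 8 of H4, all 5 of H3.1 and all 3 of H3.3, were found only on probes paired with several genes of their own class. The remaining 14 genes, among them all 12 of H2A, had no probe named here and were not analysed.

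Roots of 4-week-old plants of cultivar Nourin No.16 were compared in 2 groups of 3 arrays, 1 colour each, which the labels call biological replicates. In the foliar GSH group, reduced glutathione (GSH, a thiol tripeptide of redox control) was brushed onto source leaves for 4 days at 100 mM, with 50 µL on each of 3 expanded leaves, in a buffer with 10 mM MES and 0.01% Triton X-100. The control group was left untreated over the same 4 days, and the labels name no buffer for it, so GSH and the brushing of a buffered detergent cannot be told apart. Both groups shared cultivar, age and culture in aerated nutrient solution.

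Histones are the proteins around which nuclear DNA is wound. H2A, H2B, H3 and H4 form the nucleosome core, and H1 binds the linker DNA between cores. Most H4 and H3.1 is made in S phase, when new chromatin is assembled behind the replication fork. Its mRNA therefore marks cells in S phase, among them dividing cells of the root meristem. H3.3 and other variants are made outside S phase as well. Plant histone mRNAs carry poly(A) tails, so a label primed at the 3′ end can reach them.

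The probes were designed on Arabidopsis sequence, and rape carries several close copies of each histone gene. A signal may therefore mix copies and family members, and each value below belongs to a probe. In whole-root RNA, fewer cells in S phase and less histone mRNA per cell cannot be told apart. The deposited values, taken here as logs from their range, ran from 5.09 to 12.9, with quartiles at 5.67, 5.84 and 6.06. The spread left in them is minute. Between the highest and the lowest of the 6 arrays the median probe differed by 1.91 millionths of a unit, and the 16 histone genes by 0.440 to 7.76 millionths. Each difference below is foliar GSH minus control, in millionths of that unit. They are not fold changes, and their sizes cannot be compared between probes. With every probe set to the same spread, foliar GSH replicate 1 stood apart on the first principal component, which held 25.5% of the variance. It scored 128, where the other arrays scored -91.2 to 27.0. On the second component, with 20.9% of the variance, foliar GSH replicate 2 scored 125, where the others scored -51.9 to 35.7.

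No histone gene was separated between foliar GSH and control roots at the threshold used, a Benjamini-Hochberg adjusted p under 0.05 in limma. Of the 16 genes, 10 had a lower mean after foliar GSH and 6 a higher one. The background was 48.0% of all 22746 probes with a lower mean and 52.0% with a higher one. limma called 0 of the 16, as it called 0% of all probes. With no adjustment, 0 of 16 genes had a limma p under 0.05 either, where the background was 6.75% in either direction, 3.13% higher and 3.61% lower. In 12 of the 16 genes the difference was no larger than its own standard error. The median moderated t of the 16 was -0.18, beside 0.04 over all 13350 genes. Without foliar GSH replicate 1 the lower means numbered 6 of 16 and the median t was 0.41. Without control replicate 3 they numbered 7 and the median t was 0.19. Centring the arrays on their medians adds 0.598 millionths to every difference, and then 3 of 16 genes had a lower mean and the median t was 0.67. The prevailing sign therefore changed without foliar GSH replicate 1, without control replicate 3 and with centring. Centring shifts every difference by the same amount, so any negative difference smaller in size than that must turn. The array medians spread over 1.65 millionths, beside 1.91 for the range of the median probe. Under quantile normalization only 2688 of the 22746 probes still varied, so most kept their rank on all arrays. An array median may therefore follow the few probes at the middle, and centring cannot separate their noise from a shift of the array. What set the sign was not tested.

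**Figure D1:**
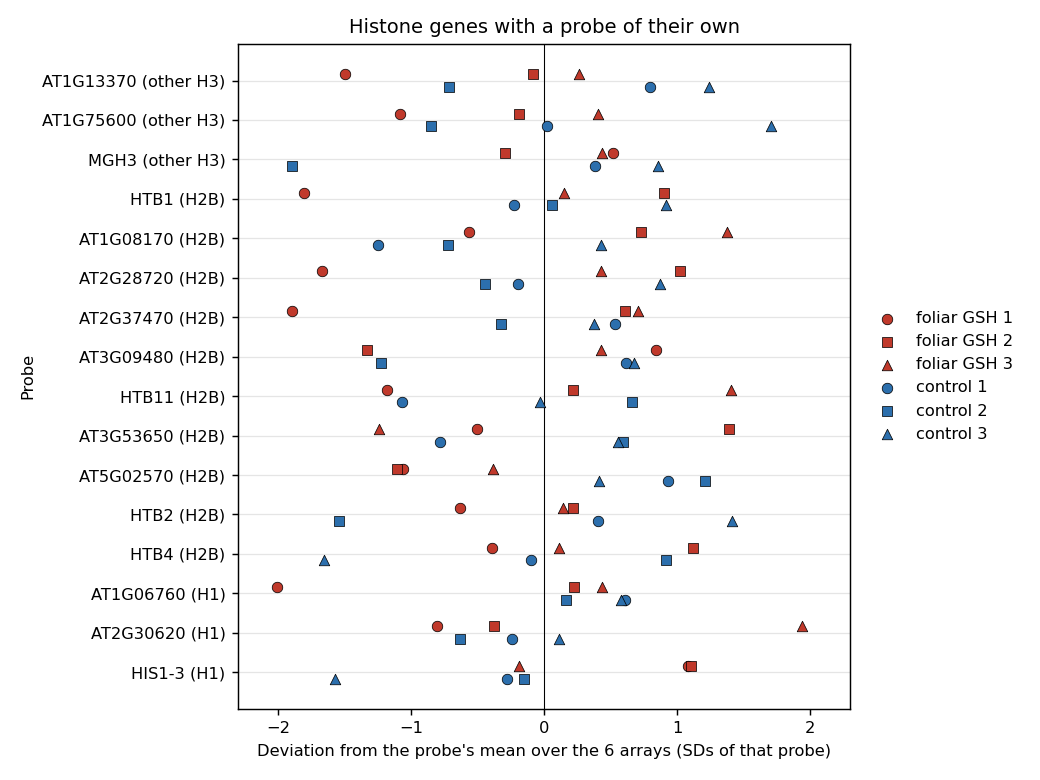
Values of the 16 histone genes on each array, as the deviation from the probe's own mean over the 6 arrays in SDs of that probe, with foliar GSH arrays above the line in red and control arrays below it in blue. Foliar GSH replicate 1 is the lowest array for 8 of the 16 genes, and AT5G02570 is the only gene with all red points left of all blue ones.

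The plot of single arrays shows where each of them lay. Foliar GSH replicate 1 was the lowest array at 8 of the 16 genes and lay above the gene's own mean at 3. In SDs of each probe, the median of the 16 genes on the foliar GSH arrays was -0.933 in replicate 1, 0.221 in replicate 2 and 0.414 in replicate 3. On the control arrays it was -0.0406 in replicate 1, -0.385 in replicate 2 and 0.566 in replicate 3. Over all 13350 genes the same array, foliar GSH replicate 1, had the highest median, 0.225, and was the lowest array at 14.6% of genes. The histone genes thus lay low on an array on which most other genes lay high. The labels give no batch for it, and its part in the histone values was otherwise not tested.

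Among the core histones, H2B had the most genes measured, 10 of 11. H2B pairs with H2A in the nucleosome core. Of the 10 genes, 7 had a lower mean after foliar GSH and 3 a higher one, with a median t of -0.18. AT5G02570 deviated from its mean level of 6.28 by -0.220, -0.229 and -0.079 millionths on the foliar GSH arrays, and by 0.193, 0.251 and 0.085 millionths on the control arrays. Every foliar GSH value lay below every control value. It was the only gene of the 16 that lay wholly below the controls, where the background was 5.75% of probes. Wholly above them lay 0 genes, where the background was 5.63%. The difference was -0.352 millionths (SE 0.137, n = 3 each, limma adjusted p = 0.742). Centring the arrays turned it to 0.246 and left 0 genes wholly below. Without control replicate 2, 4 genes lay wholly below the controls, and without foliar GSH replicate 1, 2 lay wholly above. Groups separate more easily with an array left out. The share over all probes is not given for these settings, so the counts cannot be set against the backgrounds above.

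AT1G08170 encodes H2B.8, a variant known from sperm and seeds of Arabidopsis. It deviated from its mean of 6.05 by -1.33, 1.74 and 3.26 millionths on the foliar GSH arrays, and by -2.96, -1.73 and 1.02 millionths on the control arrays. The groups overlapped, since foliar GSH replicate 1 lay among the controls. The difference of 2.44 millionths (SE 1.64, limma adjusted p = 0.914) was the largest upward t of the class, 1.49.

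The other 8 H2B genes gave t from -0.62 to 0.70. HTB1, with a mean of 6.71 above the upper quartile, differed by -0.972 millionths (SE 1.56), and leaving out foliar GSH replicate 1 turned this to 0.542. HTB11 and HTB4 had higher means after foliar GSH, by 0.874 (SE 2.46) and 0.744 millionths (SE 1.06). The foliar GSH arrays of HTB11 spread from -3.55 to 4.21 millionths, and its difference turned to -1.01 without foliar GSH replicate 3 and to -0.513 without control replicate 1. For HTB4 control replicate 3, at -2.20, was the lowest array. HTB2 differed by -0.0577 millionths (SE 0.289), with a 95% interval of the difference from -0.808 to 0.693. AT2G37470 differed by -1.12 millionths (SE 2.35), which rested on foliar GSH replicate 1 at -5.49 where the other 5 arrays lay between -0.933 and 2.05 millionths. Without that array its difference was 1.34. AT3G53650, AT2G28720 and AT3G09480 differed by -0.378 (SE 1.31), -0.0407 (SE 0.255) and -0.00867 millionths (SE 0.207). These 3 probes were dim, with means of 5.55, 5.39 and 5.59 under the lower quartile. The male-gamete gene MGH3 and the leaf gene RCA, at 5.97 and 6.04, lay above the series median of 5.84. Whether these or the other histone probes report expression in roots was not tested.

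Of the H3 variants outside the main H3.1 and H3.3 genes, 3 of 4 were measured, and 2 had a lower mean. AT1G13370 (HTR6), an H3.3-like gene, deviated from its mean of 5.71 by -2.22, -0.126 and 0.385 millionths on the foliar GSH arrays, and by 1.18, -1.06 and 1.84 millionths on the control arrays. Foliar GSH replicate 1 was lowest and control replicate 3 highest, with the rest interleaved. Its difference was -1.31 millionths (SE 1.09, limma adjusted p = 0.952). AT1G75600 (HTR14), a close relative, deviated by -0.304, -0.054 and 0.113 millionths on the foliar GSH arrays, and by 0.005, -0.238 and 0.477 millionths on the control arrays. The same arrays were lowest and highest as for AT1G13370, and the difference was -0.163 millionths (SE 0.252, limma adjusted p = 1.00). Its probe, with a mean of 5.36, was under the lower quartile. MGH3, the H3 of male gametes, had a mean of 5.97 and differed by 0.0853 millionths (SE 0.199), with a 95% interval from -0.432 to 0.603.

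All 3 linker histone genes were measured, and 2 had a higher mean after foliar GSH. HIS1-3, the linker variant induced by drought and abscisic acid in Arabidopsis, deviated by 0.717, 0.732 and -0.126 millionths on the foliar GSH arrays, and by -0.183, -0.099 and -1.04 millionths on the control arrays. Foliar GSH replicates 1 and 2 lay above every control, and foliar GSH replicate 3 fell between controls. The difference of 0.883 millionths (SE 0.396, limma adjusted p = 0.791) had the highest t of the 16 genes, 2.23, and stayed positive without any single array, from 0.582 to 1.17. Its probe was dim, with a mean of 5.64. AT1G06760 (H1.1) deviated by -0.446, 0.050 and 0.096 millionths on the foliar GSH arrays, and by 0.134, 0.036 and 0.128 millionths on the control arrays. A single array, foliar GSH replicate 1, lay apart there. The difference was -0.199 millionths (SE 0.201, limma adjusted p = 0.98), and -0.0263 without that array. AT2G30620 (H1.2), with a mean of 7.53 above the upper quartile, differed by 0.322 millionths (SE 0.522), set by foliar GSH replicate 3 at 1.23. Without foliar GSH replicate 3 it was -0.213.

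By the annotation, H4, H3.1 and H3.3 could be read only as classes. Their genes encode nearly the same protein within a class, and the annotation pairs each probe with every gene of the class. Probes of 1 class are thus paired with the same genes and were not taken as replicates of each other. Whether a probe detects every gene paired with it was not tested. These 14 probes were added after the values of the genes had been seen and are paired with no single gene. Of the 14, 11 had a lower mean after foliar GSH, 0 were called by limma, and 2 had an unadjusted limma p under 0.05, both lower, where the background of lower probes was 3.61%.

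H4, the partner of H3 in the core and a marker of S phase, had a lower mean on all 5 of its probes. Centring the arrays on their medians, with the limit given above, left 3 of the 5 lower. It turned 247692_s_at and 252562_s_at, to 0.143 and 0.233 millionths. Control replicate 3 was the highest array on each of the 5 probes. The probe 266226_at, at a mean of 6.38, deviated by -0.573, -0.781 and -0.266 millionths on the foliar GSH arrays, and by 0.213, 0.430 and 0.975 millionths on the control arrays. Every foliar GSH value lay below its mean over the 6 arrays and every control value above it. Its difference was -1.08 millionths (SE 0.275, moderated t -3.92, limma adjusted p = 0.581).

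The probe 261408_s_at, at 7.22, deviated by -0.467, -0.603 and 0.024 millionths on the foliar GSH arrays, and by 0.128, 0.384 and 0.533 millionths on the control arrays. The difference of -0.697 millionths (SE 0.237, moderated t -2.94, limma adjusted p = 0.693) came with groups that did not overlap, foliar GSH replicate 3 lying nearest to the controls. On 252562_s_at, at 5.72, the deviations were -0.198, -0.372 and 0.023 millionths in foliar GSH roots and 0.048, 0.129 and 0.372 millionths in control roots. These groups met almost at 1 point without overlapping, and the difference was -0.365 millionths (SE 0.183, limma adjusted p = 0.833). In all, 3 of the 5 H4 probes had all foliar GSH arrays below all controls, against 5.75% of all probes, and with centred arrays 0 of 5 did. Without control replicate 1 it was 5 of 5. Groups separate more easily with an array left out, and the share over all probes is not given there, so 5.75% does not apply.

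The H4 probe 247692_s_at, at a mean of 9.36, deviated by -0.378, -0.330 and 0.026 millionths on the foliar GSH arrays, and by -0.436, 0.459 and 0.659 millionths on the control arrays. Here control replicate 1 was the lowest array of all, and the groups overlapped (difference -0.455 millionths, SE 0.349). On 251924_at, at 7.07, the difference was -3.45 millionths (SE 3.89), and it was -0.198 without foliar GSH replicate 1. The median t of the 5 probes was -2.00, and it was -0.16 with centred arrays, -0.92 with trended and robust variance and -3.50 with the replicate number as a block. Without single arrays it ran from -2.98 to -1.33. With centred arrays 0 of the 5 probes had an unadjusted p under 0.05, in place of 2. Leaving out foliar GSH replicate 1 or 2, or control replicate 2 or 3, left 1 such probe, and leaving out control replicate 1 gave 3.

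H3.1, the H3 placed at the replication fork, did not share the order of the H4 probes. Of its 5 probes 3 had a lower mean and 2 a higher one, with t from -1.35 to 0.23, and the groups overlapped on all 5. Whether H3.1 and H4 probes differ in response was not tested. The probe 250433_at differed by -2.73 millionths (SE 2.03), and its highest and lowest arrays were control replicate 3 at 4.95 and foliar GSH replicate 2 at -3.75. The probe 250434_at differed by 0.0943 millionths (SE 1.20), with a 95% interval from -3.03 to 3.22. The others, 247192_at, 257714_at and 264262_at, differed by -0.115 (SE 0.627), 0.036 (SE 0.157) and -0.674 millionths (SE 0.696).

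H3.3, the variant deposited outside replication, had 3 bright probes with means from 6.93 to 8.12. On 250397_at the foliar GSH arrays held both extremes, at -12.5 in replicate 1, 12.7 in replicate 2 and -0.908 in replicate 3. The control arrays lay between them at 0.508, -2.53 and 2.70 millionths, so the SD was 12.6 in foliar GSH roots and 2.63 in control roots. The difference was -0.452 millionths (SE 6.77), and -6.93 to 5.68 without single arrays. The probes 252824_at and 252849_at differed by -0.184 (SE 0.739) and 0.518 millionths (SE 1.03). The last shared probe, 262979_s_at for HTR6 and HTR14, differed by -0.0907 millionths (SE 0.137).

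**Figure D2:**
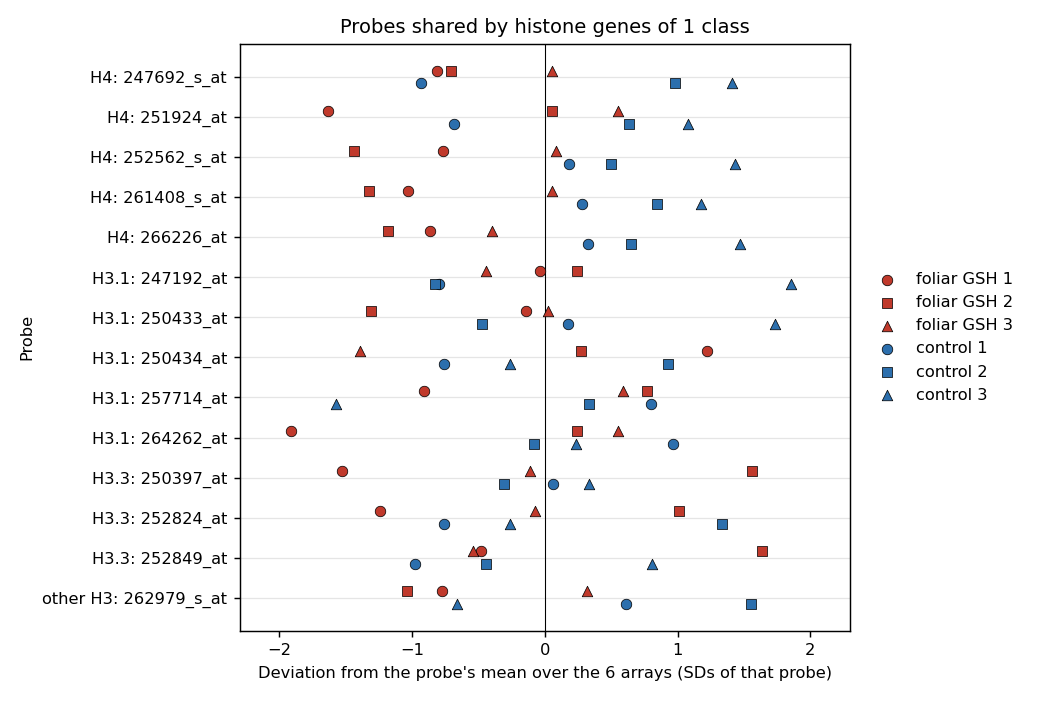
Values of the 14 probes that several histone genes of 1 class share, on each array, as the deviation from the probe's mean over the 6 arrays in SDs of that probe, with foliar GSH in red above the line and control in blue below it. On 3 of the 5 H4 probes every red point lies left of every blue one, while the points of the H3.1 and H3.3 probes are mixed.

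Other genes that work with histones in dividing cells were read from lists of chromatin assembly, DNA replication, mitosis and the E2F regulators of S phase. Of 90 listed genes 13 were measured, 7 with a higher and 6 with a lower mean, and 0 were called by limma. The median t of the 13 was 0.03. Of the 13, 1 gene, PRL, had an unadjusted limma p under 0.05, where the background was 6.75% of probes in either direction and 3.61% lower. In 2 of the 13 genes, PRL and AT4G37210, all foliar GSH arrays lay below all controls, where the background was 5.75%. None of the 9 E2F, DP and RBR genes was measured.

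PRL (PROLIFERA, MCM7) encodes a subunit of the helicase that opens DNA at replication forks. It deviated from its mean of 5.99 by -5.87, -10.2 and -6.70 millionths on the foliar GSH arrays, and by 7.97, 2.40 and 12.4 millionths on the control arrays. The groups stood well apart, with the gap between the nearest arrays wider than the whole range of the foliar GSH arrays. The difference was -15.2 millionths (SE 2.90, n = 3 each, moderated t -5.23, limma adjusted p = 0.508), and it ran from -17.8 to -12.8 without single arrays. Rescaling each probe by its own spread gave PRL a limma adjusted p of 0.0217. That setting rests on an assumed link between range and spread which is not given in the sources used here, and on simulated data it also called unchanged probes. Over the other alternatives its adjusted p ran from 0.340 to 0.989. The PRL mean lay between the quartiles, near the 5.97 of MGH3, the H3 of male gametes, and the 6.04 of the leaf gene RCA. Whether the PRL probe reports expression in roots was not tested. The other 3 replication genes measured had t from -0.27 to 1.02. ICU2, the catalytic subunit of DNA polymerase alpha, differed by 0.299 millionths (SE 0.294), and PSF2, of the GINS complex, by -0.091 (SE 0.334).

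Among histone chaperones and factors of H2A.Z exchange, 5 of 20 genes were measured, with a median t of -0.05. AT4G37210, the Arabidopsis counterpart of the H3 chaperone NASP, deviated by -1.04, -0.685 and -0.874 millionths on the foliar GSH arrays, and by 1.97, -0.571 and 1.20 millionths on the control arrays. Control replicate 2 lay close to the foliar GSH values. The difference was -1.73 millionths (SE 0.701, limma adjusted p = 0.747). The H3 and H4 chaperone gene SGA2 (ASF1A) differed by -1.25 millionths (SE 1.43), and -0.0462 without control replicate 3. The remodeller gene ATRX differed by 0.562 millionths (SE 0.926), and -0.189 without foliar GSH replicate 1 or -0.0112 without control replicate 2. Of the mitotic list 4 of 27 genes were measured, 3 of them with a higher mean. The Aurora kinase gene AUR1 differed by -4.03 millionths (SE 1.96, limma adjusted p = 0.821), while AUR2, its close relative, and the topoisomerase gene TOPII differed by 0.145 (SE 0.620) and 0.109 millionths (SE 0.572).

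**Figure D3:**
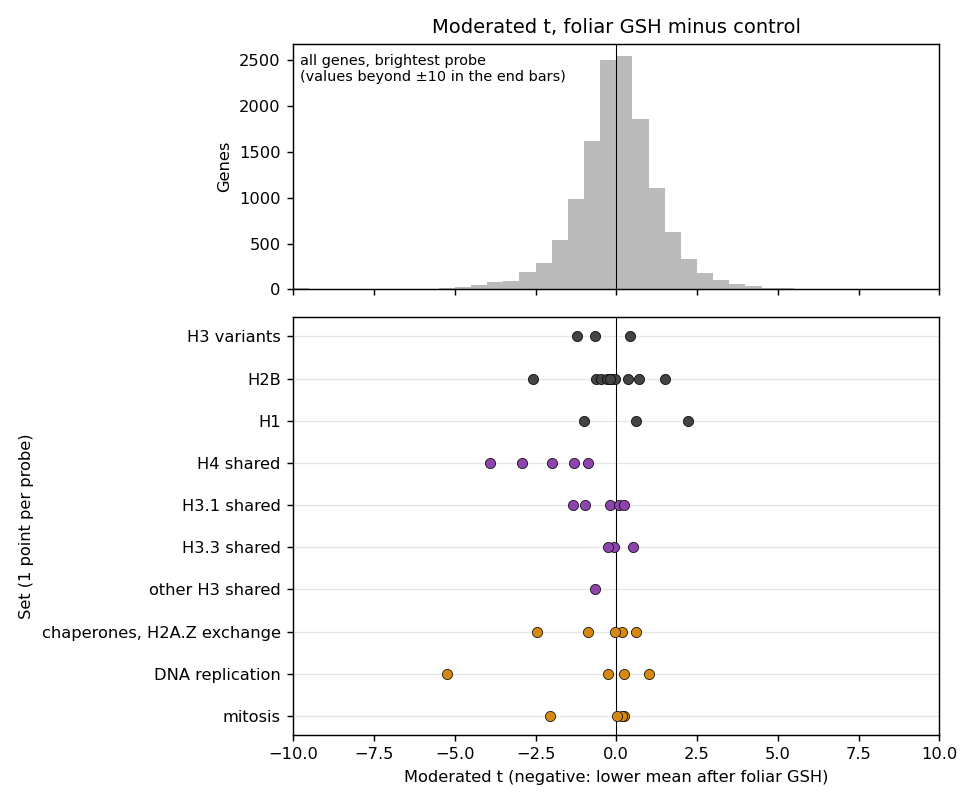
Moderated t (foliar GSH minus control) of all 13350 genes as a histogram above, and of each histone class, set of shared probes and pathway list below, with 1 point per probe. The 16 histone genes lie between -2.58 and 2.23, the 5 H4 probes between -3.92 and -0.89, and PRL at -5.23.

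Of the markers of root cell types, the meristem genes could not be read, because 0 of 6 had a probe paired with 1 gene. Those of endodermis and xylem were likewise not measured. Both measured expansin genes of root hairs had a lower mean after foliar GSH, EXPA7 by a difference of -27.3 millionths (SE 20.8) and EXPA18 by one of -2.12 (SE 5.12). Without control replicate 3 EXPA18 turned to 3.13, while EXPA7 ran from -47.7 to -16.3 without single arrays. EXPA7 had a mean of 6.13, above the upper quartile, and its highest and lowest arrays were control replicate 3 and foliar GSH replicate 1. Of the 16 histone genes only AT1G13370, AT1G75600 and HTB1 had that pair. For EXPA18 the lowest array was control replicate 2. The part of the cell makeup in these histone values was not tested. Of the leaf markers, LHCB4.1 and RCA had means of 5.75 and 6.04, between the quartiles, and differed by 0.280 (SE 0.187) and -0.0573 millionths (SE 0.148).

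**Figure D4:**
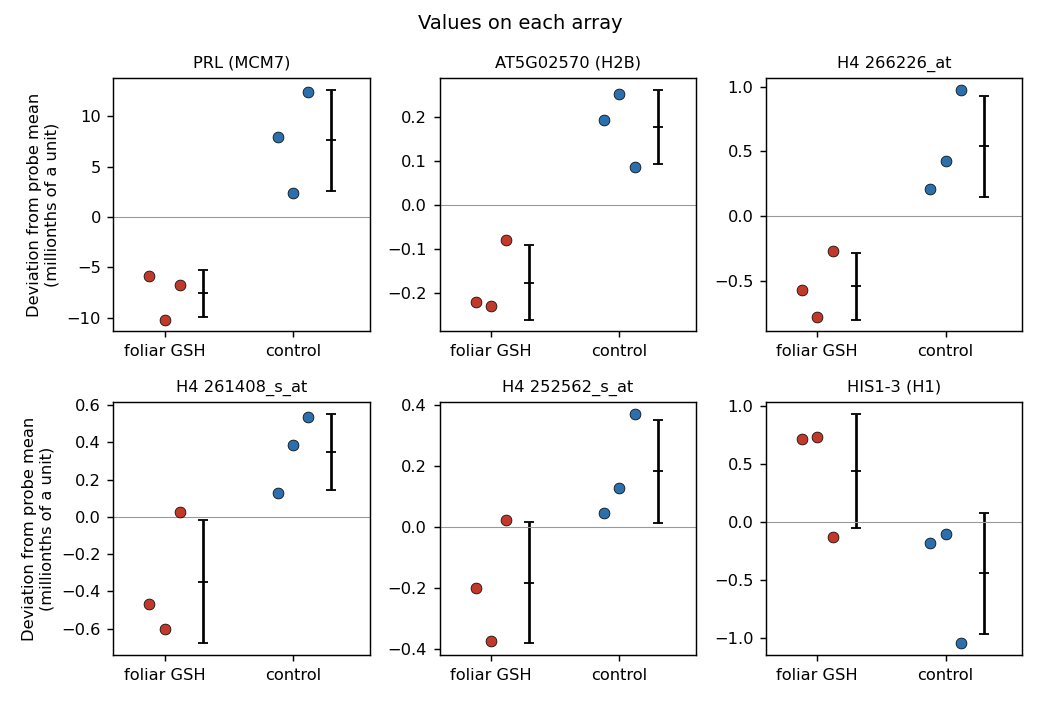
Deviation from the probe's mean over the 6 arrays, in millionths of a unit, for PRL, AT5G02570, 3 H4 probes and HIS1-3, chosen after their values were seen. Points are arrays, with foliar GSH left in red and control right in blue, and bars show the mean ± SD (n = 3). The groups do not overlap in the first 5 panels, and in the panel of HIS1-3 they do.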

How the data were processed

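Root RNA of 3 foliar GSH and 3 control replicates was labelled with biotin from 100 ng of total RNA, per the labels' protocols. The authors deposited 1 table of processed values, taken here as log2 from their range and used without further normalization. How background, summary and normalization were handled, and the base of the log, is not given in the sources used here. The submitters' processing notes name R 2.7.2. Of the 22810 probes, 64 array controls were left out. The platform annotation pairs 13513 of the others with 1 gene and 503 with several, and 8730 are unnamed here.

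The main comparison used lmFit and eBayes of limma 3.58.1 (R 4.3.3), adjusted by Benjamini-Hochberg over 22746 probes at a threshold of 0.05, with no filter on dim probes. Intervals are 95%. The steps were tested on simulated data, where limma missed most of the added shifts at the adjusted threshold. An absence of calls therefore does not show unchanged expression. The members and lists were chosen with earlier results of these data known. Every measured member is named. Array values are given for the 2 of each class with the smallest p and for those whose groups did not overlap, and up to 3 genes of each pathway list are named by smallest p. The probes shared within a class were added after seeing the data. Replicate numbers of the labels were not used as a pairing. Arrays carry no read depth, and their number limits the precision. As alternatives the arrays were centred, quantile normalized, weighted, left out 1 at a time or blocked by replicate number. Other alternatives kept only brighter probes, changed the variance model, replaced limma by Welch's test, rescaled each probe or averaged the probes of a gene.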

Additional observations from a re-analysis of the deposited data

How the results depend on the processing

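The probes of several genes, and all their settings, were added after seeing the data. In each setting that gave a value, 0 histone genes and 0 H4 probes were called. The count over all probes was 0, and 27 under quantile normalization (2688 probes still varying), 4 among probes above the median signal, 1 with the replicate block and 337 after rescaling. At an unadjusted p under 0.05 there were 713 higher and 822 lower probes. Centring gave 1008 higher and 413 lower ones. Quantile normalization gave 26 higher and 27 lower, out of the 2688 still varying. The higher ones numbered 401 among brighter probes and 458 by Welch's test. Histone genes at that level numbered 0, and 2 with the replicate block, 1 with array weights, 1 by Welch's test and 2 with the shared probes added. Same-numbered arrays deviated with correlations of -0.0214, -0.0156 and 0.0992, and differently numbered ones with -0.0955 to 0.106. The numbers were not taken as pairs, though these correlations cannot show that no pairing exists. Lower means, 10 of 16, became 3 with centring, 0 under quantile normalization, where 1 gene, AT2G37470, still varied with equal group means, 4 of 9 among brighter probes and 21 of 30 with shared probes. The 1 gene wholly below the controls, AT5G02570, became 0 with centring and 4 with shared probes, while 1 lay wholly above with centring. Under quantile normalization AT5G02570 no longer varied, so its separation could not be read there. The H4 probes at unadjusted p under 0.05 became 0 with centring, 1 with trended and robust variance and 0 after rescaling. With centring 3 of them had a lower mean and 0 lay wholly below, and their median t was -0.16, beside -3.50 with the replicate block and -0.92 with trended and robust variance. Of the pathway genes, 0 had a lower mean and 0 an unadjusted p under 0.05 under quantile normalization, where 1 still varied, and 2 had such a p after rescaling, where 1, PRL, was called.

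Without single arrays, histone genes with a lower mean ran from 6 to 11 and those at unadjusted p under 0.05 from 0 to 1. Those wholly below ran from 1 to 4 and wholly above from 0 to 2, with no share over all probes given for these settings. For the H4 probes, those at unadjusted p under 0.05 ran from 1 to 3, those wholly below from 3 to 5 and the median t from -2.98 to -1.33. The pathway genes at that level ran from 1 to 2 and those with a lower mean from 6 to 9.

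Of 563 values of the 43 named genes and probes, 59 turned sign. Centring, which adds 0.598 millionths to each difference, gave 0.435 for AT1G75600, 0.557 for AT2G28720, 0.589 for AT3G09480, 0.220 for AT3G53650, 0.246 for AT5G02570, 0.540 for HTB2, 0.399 for AT1G06760, 0.143 for 247692_s_at, 0.233 for 252562_s_at, 0.483 for 247192_at, 0.146 for 250397_at, 0.414 for 252824_at, 0.507 for 262979_s_at, 0.507 for PSF2 and 0.541 for RCA. Array weights gave 0.0215 for AT2G28720, 1.18 for 250397_at, 0.0333 for 252824_at and -0.0175 for AUR2. Leaving out 1 array turned 11 of the 16 histone genes, from -0.323 to 0.0348 for AT1G75600, -0.189 to 0.175 for AT2G28720, -0.213 to 0.658 for AT2G30620, -2.43 to 1.34 for AT2G37470, -0.135 to 0.124 for AT3G09480, -1.57 to 0.510 for AT3G53650, -2.10 to 0.542 for HTB1, -1.01 to 2.87 for HTB11, -0.317 to 0.151 for HTB2, -0.170 to 1.54 for HTB4 and -0.0785 to 0.191 for MGH3. Among shared probes the values ran from -0.451 to 0.544 for 247192_at, -0.762 to 1.12 for 250434_at, -0.0512 to 0.101 for 257714_at, -1.09 to 0.0207 for 264262_at, -6.93 to 5.68 for 250397_at, -0.675 to 0.360 for 252824_at and -0.383 to 1.15 for 252849_at. Among other genes they ran from -0.189 to 1.13 for ATRX, -0.341 to 0.524 for AUR2, -5.75 to 3.13 for EXPA18, -0.299 to 0.222 for PSF2, -0.135 to 0.0127 for RCA and -0.271 to 0.542 for TOPII. The causes were not tested.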
